A study of Mus musculus with 6 samples.

Results

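The 10 genes described here mark bile duct cells, liver progenitor cells and simple epithelia: Sox9, Spp1, Epcam, Krt7, Krt8, Krt18, Krt19, Cd24a, Cldn7 and Prom1. They were chosen by gene name, with earlier results of these data known. All 10 were found, each once, among the 34745 genes of the expression table. Messenger RNA was sequenced from mouse liver in 6 libraries, 1 for each tissue and sex. The tissues were liver tumour, labelled hepatocellular carcinoma (HCC), and precancerous liver, both from Hras12V transgenic mice, and normal liver of wild-type (WT) mice. All mice were C57BL/6 and untreated; females were 15 months of age and males 9 months, and the effects of sex and of age therefore cannot be told apart. The labels used here do not name the promoter that drives the transgene, nor give the number of mice behind a library, or say whether a tumour and its neighbouring precancerous tissue share a mouse. No group has a replicate. In the fits of tissue and sex, each p-value rests on how far tissue differences disagree between the 15-month females and the 9-month males. No p-value here measures the spread between mice of a group.

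In a healthy liver, hepatocytes carry a single keratin pair, keratin 8 and keratin 18, which join into the filaments that brace the cell. Bile duct cells add keratin 7 and keratin 19, and share the transcription factor SOX9, the secreted protein osteopontin and the surface proteins EpCAM, CD24 and prominin-1 with progenitor cells of the ductular reaction. Injured hepatocytes and liver tumours are known to switch on parts of this set. In bulk tissue, more cells of a type and more RNA per cell cannot be told apart.

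Levels are given as FPKM, the fragments of a gene scaled to its length and to the library total, and as the deposited read counts. Total counts were 18434508 and 7347064 in the female and male tumour, 15047022 and 6891837 in the precancerous and 17655912 and 5996585 in the normal libraries. The 11 hepatocyte markers found in the table summed to 63060 and 65150 FPKM in the tumours, 52320 and 47240 FPKM in precancerous and 47420 and 32910 FPKM in normal liver, so the markers of the labelled organ were abundant in every library. Alb alone made up most of each sum. It had 54600 and 53380 FPKM in the tumours, 41130 and 37270 FPKM in precancerous and 35380 and 22400 FPKM in normal liver. A gene was tested where it had at least 1 FPKM in at least 2 libraries, which held for 11435 genes and for 7 of the 10 described here. Krt7, Krt19 and Cldn7 were below that level, and Epcam and Prom1 reached it only through the tumours. A fit of 17142 genes with at least 10 counts in total, which needs no level in any tissue, covered all 10.

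The sequences just upstream of the genes that turned out to carry the largest and the most abundant changes are shown first. RefSeq promoters of the GRCm38.p6 build were held for 7 of the 10 genes; Sox9, Krt19 and Cd24a had no entry. Printed, 5′ to 3′ on the gene's strand, are the stretches of the 250 bases before the start that lie outside the gene's annotated exons. They are 250 bases for Spp1 (chr5:104434861-104435110, plus strand), 110 for Krt8 (chr15:102004483-102004592, minus strand) and 214 for Krt18 (chr15:102027966-102028179, plus strand). Capitals mark matches to the searched motifs.
Spp1: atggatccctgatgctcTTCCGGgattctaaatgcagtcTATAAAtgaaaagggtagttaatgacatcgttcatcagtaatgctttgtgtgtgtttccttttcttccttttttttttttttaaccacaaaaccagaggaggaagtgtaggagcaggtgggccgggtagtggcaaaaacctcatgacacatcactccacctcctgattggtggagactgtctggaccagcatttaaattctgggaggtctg
Krt8: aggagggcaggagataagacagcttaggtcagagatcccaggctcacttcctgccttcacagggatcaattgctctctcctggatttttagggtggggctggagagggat
Krt18: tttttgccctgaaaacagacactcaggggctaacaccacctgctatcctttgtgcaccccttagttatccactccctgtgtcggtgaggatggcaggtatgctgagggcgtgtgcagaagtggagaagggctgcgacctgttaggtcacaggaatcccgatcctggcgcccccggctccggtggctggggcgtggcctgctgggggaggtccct
The motifs were AP-1 (TGANTCA), TEAD (GGAATG), ETS (CCGGAA), RBPJ (TGGGAA), the GC box (GGGCGG) and the TATA box (TATAAA), on both strands. The ETS, RBPJ and TEAD letters share GGAA, so their matches can overlap. The Spp1 stretch held 1 ETS match, 233 to 228 bases before the start, and 1 TATA match, 211 to 206 bases before it. A further RefSeq window of Spp1 (chr5:104435942-104436191, plus strand), not printed here, held none of the 6 motifs. Across all 32851 promoters of 250 bases, 12.0% held the ETS and 12.4% the TATA letters. The Krt18 window held none of the 6 motifs. The Krt8 window held 1 RBPJ match, 134 to 129 bases before the start in a part that is exonic in some transcripts; 21.6% of promoters held it. Of the 7 members with an entry, Prom1 alone held an AP-1 match, in both of its RefSeq windows. All 250 bases of the first window lie in annotated exons. Of single promoters of 250 bases, 6.75% held the AP-1 letters. These matches describe letters and not bound sites.

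Tumour was set against precancerous liver to see what the carcinoma adds within transgenic mice. Spp1, Prom1, Cd24a, Sox9, Krt18 and Krt8 rose in tumours, from 1.76-fold for Krt8 to 13.3-fold for Spp1. These 6 were called, at an adjusted p under 0.05 in edgeR's quasi-likelihood test with sex in the model, among the 7 members tested; 13.8% of all tested genes were called upward and 12.1% downward. Since 2 of the 7 entered through their tumour level alone, the fuller count is 6 of all 10 members called upward in the fit without a level filter, where 10.6% of genes were and 9.4% were called downward. No member was called downward in either fit. In FPKM, both tumours lay above the other 4 libraries for 8 of the 10 members, against 22.0% of genes in that fit. The median log2 fold change was 1.61 over the 10 members and 0.03 over all genes of that fit. The members, and the gene lists below, were chosen with earlier results of these data known. Their shares beside those of all genes are therefore descriptions and not tests of the set.

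**Figure D1:**
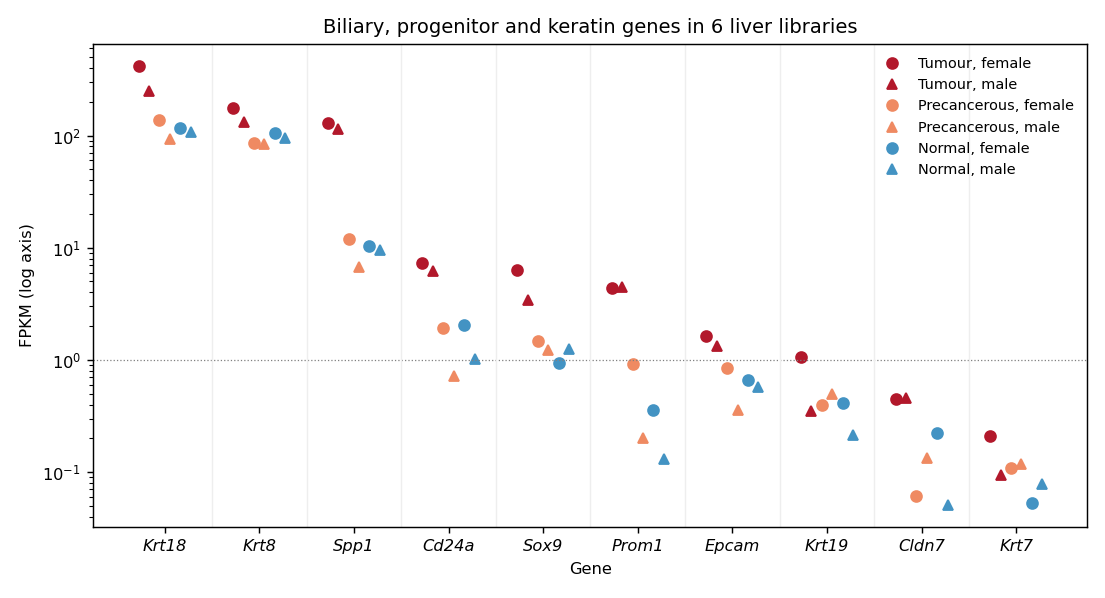
FPKM of the 10 genes on a log axis in each of the 6 libraries, with red for tumour, orange for precancerous and blue for normal liver, circles for females and triangles for males; the dotted line marks 1 FPKM. The tumour points stand above the rest for 8 genes, and overlap with them for Krt19 and Krt7, which stayed at or below 1.07 FPKM.

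Sox9, the transcription factor that marks duct and progenitor cells, had 6.39 FPKM (487 counts) in the female and 3.39 FPKM (103 counts) in the male tumour. Precancerous liver had 1.46 and 1.23 FPKM (91 and 35 counts), and normal liver 0.931 and 1.25 FPKM (68 and 31 counts). The tumours stood above all other libraries, and the other 4 lay close together. Sox9 rose in tumours over precancerous liver by a log2 fold change of 1.83 (SE 0.33, edgeR adjusted p = 0.017) and over normal liver by 2.20 (SE 0.34, adjusted p = 0.00855). Within females the ratio to precancerous liver was 4.37 (95% interval 3.49 to 5.53) and within males 2.76 (1.87 to 4.18). Such intervals between single libraries cover counting error only. The call over precancerous liver was lost without the female tumour (log2 fold change 1.22, adjusted p = 0.0578), the female precancerous (0.163) or the male precancerous library (0.114). Over normal liver it was lost without female normal liver (log2 fold change 1.56, adjusted p = 0.0518), and the value was 1.60 without the female tumour.

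Notch signalling, which drives duct fate and Sox9 in the developing liver, was read from 13 listed genes. Gene lists here and below are counted in the fit without a level filter, where 10.6% of all genes were called upward and 9.4% downward. The median log2 fold change in that fit was 0.03. Single genes that reached the level filter carry the values of the fit with it. Notch3, Itga4, Gpnmb, Bicc1, Sox4, Itga6, Cdh17 and Vil1 reached it only through the tumours. Nrarp and Col1a1 also needed a tumour library to reach it, with a single library at that level outside the tumours. All of these genes were called upward without the filter as well. Cd44 needed a tumour library in the same way and was called in neither fit. Of 12 Notch genes in the fit without a level filter, 6 rose in tumours over precancerous liver and none fell. Their median log2 fold change was 0.94. Hes1, the best known Notch target, stood at 12.8 and 8.66 FPKM in the tumours, against 4.58 and 2.74 FPKM in precancerous liver (log2 fold change 1.54, SE 0.16, edgeR adjusted p = 0.00504). The receptor gene Notch3 rose by 2.10, the ligand gene Dll4 by 1.08 and the feedback gene Nrarp by 1.25 on the log2 scale. Rbpj, the DNA-binding partner of Notch, had a log2 fold change of 0.09 (adjusted p = 0.587). Hes5 was listed at 0 in all 6 libraries.

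Spp1 encodes osteopontin, a secreted matrix protein made by duct cells, by some macrophages and by many carcinomas. It had 129 FPKM (12776 counts) in the female and 115 FPKM (4555 counts) in the male tumour. Precancerous liver had 11.8 and 6.67 FPKM (957 and 247 counts), and normal liver 10.3 and 9.50 FPKM (981 and 306 counts). No tumour value came near the others. Exons of Gm42793 on the same strand cover 18.8% of the exonic bases of Spp1, and reads from there cannot be told apart between them. Spp1 rose over precancerous liver by a log2 fold change of 3.73 (SE 0.23, edgeR adjusted p = 0.00276) and over normal liver by 3.59 (SE 0.23, adjusted p = 0.00129). It was the member that passed under all 12 alternatives in both comparisons, with log2 fold changes between 3.40 and 4.06 over precancerous liver.

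Of 10 genes for osteopontin receptors, 1 rose over precancerous liver and none fell in the fit without a level filter, a share near that of all genes. The median log2 fold change was 0.35. The gene called was Itga4, an integrin gene, at 0.92 (SE 0.17, edgeR adjusted p = 0.0195). Itgav, the alpha-v integrin, had a log2 fold change of 0.64 and passed with the level filter (SE 0.15, adjusted p = 0.0346) but not without it. Cd44, the other main receptor, stood at 1.88 and 1.14 FPKM in tumours and 1.04 and 0.974 FPKM in precancerous liver (adjusted p = 0.109).

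Macrophages are a known source of osteopontin, so their markers are given beside Spp1. Of 14 listed markers, 5 rose and 7 fell in tumours over precancerous liver. The list summed to 209 and 123 FPKM in the tumours, 328 and 264 FPKM in precancerous and 201 and 163 FPKM in normal liver. Kupffer cell genes fell: Marco by 4.44, Timd4 by 3.92 and Clec4f by 2.89 on the log2 scale. Of the other listed markers, Vsig4 (log2 fold change -2.15) and Cd5l (-1.58) fell as well. So did Csf1r (-0.95, SE 0.13, edgeR adjusted p = 0.00852) and Adgre1 (-0.48, SE 0.11, adjusted p = 0.0325) of the list. Those that rose were Gpnmb (log2 fold change 3.99, SE 0.24, edgeR adjusted p = 0.00261), Cd9 (2.37, SE 0.34, adjusted p = 0.0102), Lgals3 (1.32, SE 0.14, adjusted p = 0.00509) and, below the level filter, Ccr2 (1.90, SE 0.48, adjusted p = 0.0418) and Trem2 (1.60, SE 0.38, adjusted p = 0.0336). Gpnmb had 3.36 and 1.35 FPKM in the tumours, against 0.231 and 0.0583 FPKM in precancerous liver. Cd9 had 84.8 and 47.5 FPKM in the tumours, a large part of the list sums there, against 14.0 and 10.8 FPKM in precancerous liver. The part of these cells in the Spp1 result was not tested.

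Among the surface proteins of the set, Prom1 had the largest fold change. It encodes prominin-1 (CD133), a glycoprotein of membrane protrusions used as a progenitor marker. It had 4.40 FPKM (933 counts) in the female and 4.46 FPKM (377 counts) in the male tumour. Precancerous liver had 0.913 and 0.202 FPKM (158 and 16 counts), and normal liver 0.359 and 0.131 FPKM (73 and 9 counts). The tumours were nearly level with each other, while the female libraries of the other tissues stood above the male ones. Prom1 rose over precancerous liver by a log2 fold change of 3.05 (SE 0.47, edgeR adjusted p = 0.0122), and over normal liver by 4.17 (SE 0.52, adjusted p = 0.005). The ratio to precancerous liver was 4.82 in females (95% interval 4.07 to 5.74) and 22.1 in males (13.4 to 39.1). Without the male precancerous library the log2 fold change was 2.44 and the call was lost (adjusted p = 0.0693), whereas it was 4.20 without the female tumour or the female precancerous library. Over normal liver the values ran from 3.50 without the male tumour to 5.39 without the female tumour. A pseudogene, Gm46136, matches Prom1 over 310 bases at 97.4% identity, so its values are uncertain to that extent.

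Cd24a encodes the small membrane-anchored glycoprotein CD24, found on progenitor cells, duct cells and blood cells. It had 7.36 and 6.16 FPKM (246 and 82 counts) in the female and male tumours. Precancerous liver had 1.91 and 0.720 FPKM (52 and 9 counts), and normal liver 2.03 and 1.01 FPKM (65 and 11 counts). Both tumours were above all other libraries. Cd24a rose over precancerous liver by a log2 fold change of 2.33 (SE 0.31, edgeR adjusted p = 0.00814) and over normal liver by 2.12 (SE 0.30, adjusted p = 0.00711). The call over precancerous liver was lost without the female (adjusted p = 0.0578) or the male precancerous library (0.0713). Pseudogenes match Cd24a over 218 bases at 96.8% and over 259 bases at 92.3% identity, which makes its values uncertain to that extent. Of the blood cell markers, 1 of 6 red cell genes fell and 2 of 11 lymphocyte and granulocyte genes rose. The lymphocyte and granulocyte list summed to 11.1 and 8.41 FPKM in the tumours, 6.58 and 7.80 FPKM in precancerous and 10.5 and 6.89 FPKM in normal liver.

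Epcam and Cldn7 encode partners in epithelial contacts: EpCAM is an adhesion molecule of duct and progenitor cells, and claudin 7 a tight junction protein that binds it. Epcam had 1.62 and 1.33 FPKM (61 and 20 counts) in the tumours, 0.847 and 0.356 FPKM (26 and 5 counts) in precancerous and 0.666 and 0.572 FPKM (24 and 7 counts) in normal liver. Both tumours were highest, yet the margin was narrow. The log2 fold change over precancerous liver was 1.21 (SE 0.35, edgeR adjusted p = 0.0598), which missed the threshold. Over normal liver it was 1.25 (SE 0.35, adjusted p = 0.0479), a call kept under 3 of 12 alternatives. The fit without a level filter gave an adjusted p of 0.0666, and the values without 1 library lay between 0.99 and 1.52.

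Cldn7 had 0.448 and 0.458 FPKM (27 and 11 counts) in the tumours, 0.0610 and 0.133 FPKM (3 counts each) in precancerous and 0.225 and 0.0510 FPKM (13 and 1 counts) in normal liver. Both tumours were highest, on few counts. The fit without a level filter gave a log2 fold change of 2.29 over precancerous liver (SE 0.70, edgeR adjusted p = 0.0709) and 1.34 over normal liver (SE 0.61, adjusted p = 0.16).

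Other genes of epithelial junctions and keratin anchors were taken from a list of 25. Over precancerous liver 9 rose and 1 fell, with a median log2 fold change of 0.75. Cdh1, the E-cadherin gene, had 35.1 and 32.9 FPKM in the tumours, against 6.85 and 13.9 FPKM in precancerous liver (log2 fold change 1.85, SE 0.43, edgeR adjusted p = 0.0345). Cldn1, a tight junction gene, rose by 1.52 on the log2 scale. Plec, which ties keratin filaments to their anchors, rose by 0.83 (adjusted p = 0.0189). Cldn12 fell by 0.62 on the log2 scale (adjusted p = 0.0269). Cldn2 had 3.05 and 3.73 FPKM in the tumours and 24.3 and 3.80 FPKM in precancerous liver, a difference seen in females (adjusted p = 0.126).

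Krt18 and Krt8, the hepatocyte keratin pair, lie near each other on chromosome 15 (102028216 to 102032026 and 101996711 to 102004342 in GRCm38) and were the most abundant members in all 6 libraries. Krt18 had 417 and 250 FPKM (10768 and 2573 counts) in the tumours, 137 and 93.7 FPKM (2878 and 904 counts) in precancerous and 117 and 107 FPKM (2884 and 901 counts) in normal liver. Krt8 had 177 and 133 FPKM (5892 and 1759 counts) in the tumours, 86.2 and 84.8 FPKM (2341 and 1055 counts) in precancerous and 106 and 94.6 FPKM (3385 and 1024 counts) in normal liver. For both genes the tumours stood apart above the rest. Krt18 rose over precancerous liver by a log2 fold change of 1.49 (SE 0.20, edgeR adjusted p = 0.00857) and over normal liver by 1.50 (SE 0.20, adjusted p = 0.00604). Krt8 rose over precancerous liver by 0.81 (SE 0.17, adjusted p = 0.0259); over normal liver its 0.59 (SE 0.17) missed the threshold at an adjusted p of 0.0504.

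The Krt18 call over precancerous liver was lost without the female (edgeR adjusted p = 0.0867) or the male precancerous library (0.0979). The Krt8 call was lost without either of these (0.213 and 0.129) or the female tumour (0.104). Krt8 over normal liver passed under 4 of 12 alternatives, DESeq2 among them (adjusted p = 0.014). The annotation holds a processed pseudogene of Krt8, Krt8-ps, that matches it over 941 bases at 98.6% identity, and one of Krt18 over 1267 bases at 90.5%. Reads that such copies share with the genes make the keratin values uncertain to that extent.

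The balance of the pair was read from their ratio. The ratio of Krt18 to Krt8 in FPKM was 2.36 and 1.89 in the tumours, 1.59 and 1.10 in precancerous and 1.10 and 1.13 in normal liver. Both tumours and, below them, the female precancerous library stood above the remaining 3, which were level. On the log2 scale the ratio averaged 1.08 ± 0.23 in the tumours (SD, n = 2) and 0.28 ± 0.26 in the other libraries (SD, n = 4). The difference was 0.79. The tumours gave the largest of the 15 differences that picking 2 of 6 libraries allows, so an exact permutation test gave its smallest one-sided p, 0.0667, or 0.133 doubled for 2 sides. This design cannot pass 0.05.

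**Figure D2:**
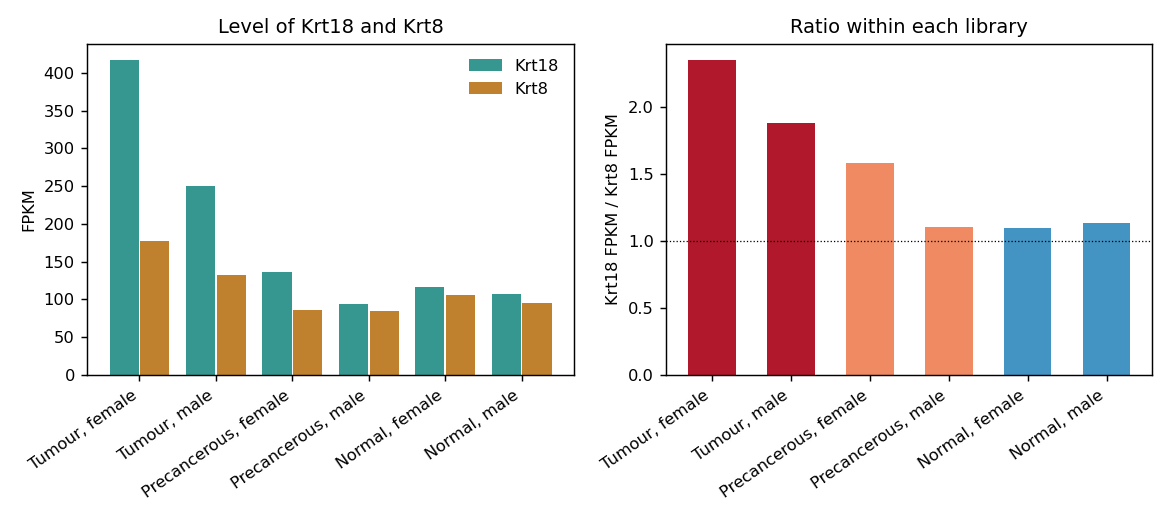
Left, FPKM of Krt18 and Krt8 in each library; right, the ratio of Krt18 to Krt8 FPKM within each library, with a dotted line at 1. Krt18 reached 417 FPKM in the female tumour against 177 FPKM for Krt8, and the ratio fell between 1.10 and 1.13 in normal liver.

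The duct keratins were low in every library. Krt19 had 1.07 and 0.350 FPKM (46 and 6 counts) in the tumours, 0.399 and 0.497 FPKM (14 and 8 counts) in precancerous and 0.413 and 0.214 FPKM (17 and 3 counts) in normal liver. The female tumour alone stood out, and the male tumour lay within the other libraries. Within females the tumour to precancerous ratio was 2.68 (95% interval 1.45 to 5.28), and within males 0.704 (0.201 to 2.31). Krt7 had 0.208 and 0.0950 FPKM (33 and 6 counts) in the tumours, 0.108 and 0.118 FPKM (14 and 7 counts) in precancerous and 0.0527 and 0.0776 FPKM (8 and 4 counts) in normal liver. Its ratio was 1.92 within females (1.002 to 3.891) and 0.804 within males (0.223 to 2.79). In the fit without a level filter the log2 fold changes over precancerous liver were 0.67 for Krt19 (SE 0.54, edgeR adjusted p = 0.435) and 0.45 for Krt7 (SE 0.50, adjusted p = 0.585). In that fit, at SEs of this size, a change as large as Krt18's cannot be told from none. This holds for the fit over both sexes and not for the intervals within a sex, which cover counting error only.

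Of 47 other keratin genes in the table, 32 had no count in any library and 41 had fewer than 10 counts in total. The 4 highest were Krt23, Krt5, Krt20 and Krt10. Krt5 and Krt20 reached the level filter only through the tumours, so being tested was not independent of a high tumour level. Krt5, a keratin of basal epithelial cells, had 6.47 and 3.73 FPKM (261 and 60 counts) in the tumours, 0.364 and 0.0663 FPKM (12 and 1 counts) in precancerous liver and no count in normal liver. It rose over precancerous liver by a log2 fold change of 4.42 (SE 0.39, edgeR adjusted p = 0.00625). With a floor of 3 counts in place of 0, it was 83.3-fold higher in female and 16.3-fold higher in male tumour than in normal liver. With the count of 0 kept, without the floor, the lower 95% limits from counting error were 67.3 and 12.9. Krt14, the usual partner of keratin 5, had 0 counts in all 6 libraries. Krt20, known from intestinal epithelium, had 1.01 and 3.46 FPKM (36 and 49 counts) in the tumours, 0.0690 and 0.0753 FPKM (2 and 1 counts) in precancerous liver and none in normal liver (log2 fold change over precancerous liver 4.49, SE 0.55, adjusted p = 0.0112).

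Krt23, a type I keratin, had 3.95 and 26.6 FPKM (114 and 306 counts) in the tumours, 1.10 and 1.02 FPKM (26 and 11 counts) in precancerous and 2.86 and 0.320 FPKM (79 and 3 counts) in normal liver. The male tumour held by far the highest value. The log2 fold change over precancerous liver was 3.38 (SE 1.16, edgeR adjusted p = 0.0912), which did not pass. Krt10 stayed at or below 0.780 FPKM in every library. Krt8 and Krt18 together made up 97.8% and 91.4% of summed keratin FPKM in the tumours, 98.7% and 98.5% in precancerous and 98.2% and 99.1% in normal liver.

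**Figure D3:**
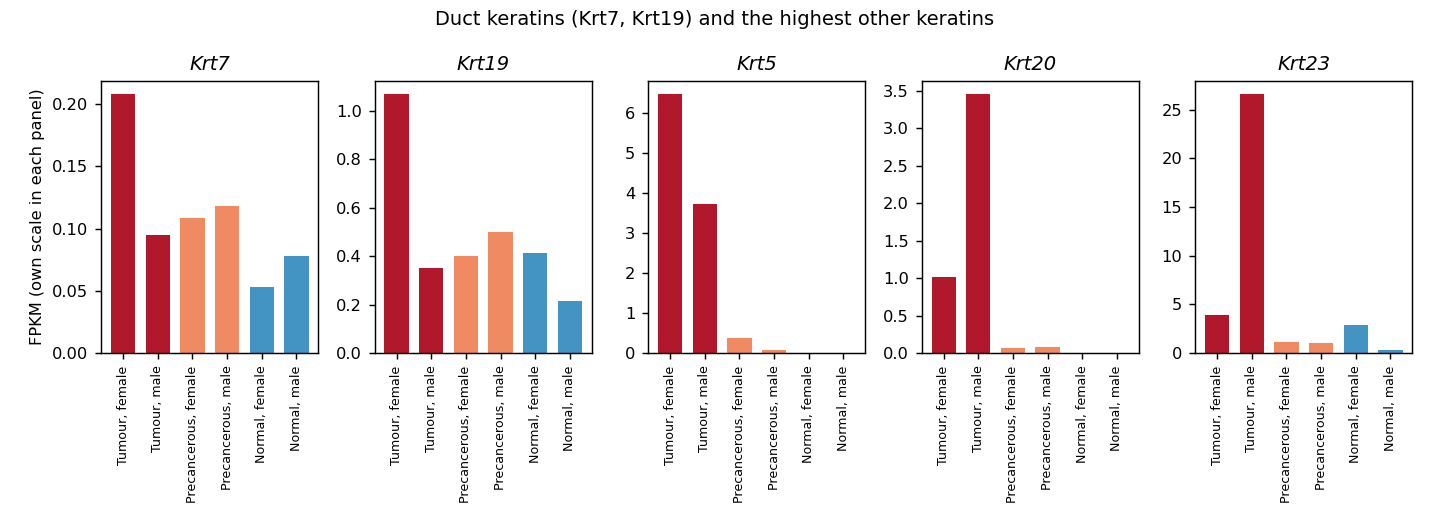
FPKM of the duct keratins Krt7 and Krt19 and of Krt5, Krt20 and Krt23 in each library, each panel on its own scale from 0, with red for tumour, orange for precancerous and blue for normal liver. Krt5 and Krt20 are highest in both tumours with no count in normal liver, while Krt7 and Krt19 are highest in the female tumour alone.

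Further duct markers changed in both directions. Of 23 in the fit without a level filter, 8 rose and 2 fell over precancerous liver, with a median log2 fold change of 0.84. Tspan8, a tetraspanin of ducts and gut, had 123 and 191 FPKM in the tumours, against 15.0 and 1.56 FPKM in precancerous liver (log2 fold change 4.49, SE 0.94, edgeR adjusted p = 0.0261). Bicc1, an RNA-binding protein gene active in ducts, rose by 2.15 and Anxa4 by 1.28. Onecut1, a transcription factor of early duct and hepatocyte fate, had 3.18 and 5.61 FPKM in the tumours, against 13.7 and 15.8 FPKM in precancerous liver (log2 fold change -1.84, SE 0.16, adjusted p = 0.00355). Below the level filter, the channel gene Cftr had 34 and 15 counts in the tumours, against 3 and 4 counts in precancerous liver, and rose by 2.43 (SE 0.55, adjusted p = 0.0302), at no more than 0.192 FPKM. Ggt1 had 76 and 13 counts in the tumours, against 1 and 0 counts in precancerous liver (adjusted p = 0.0052). The secretin receptor gene Sctr had at most 0.139 FPKM in any library (adjusted p = 0.326). The list summed to 675 and 729 FPKM in the tumours, 472 and 481 FPKM in precancerous and 404 and 360 FPKM in normal liver.

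Progenitor and fetal genes beyond the 10 numbered 17. Of 16 in the fit without a level filter, 7 rose over precancerous liver and 1 fell, with a median log2 fold change of 1.53. The transcription factor gene Sox4 had 8.03 and 4.66 FPKM in the tumours, against 0.513 and 0.424 FPKM in precancerous liver (log2 fold change 3.76, SE 0.20, edgeR adjusted p = 0.00253). Afp, the fetal albumin relative, rose by 4.85, the integrin gene Itga6 by 2.93 and Tnfrsf12a, the receptor for the progenitor growth signal TWEAK, by 2.62. The gene that fell was the stem cell gene Lgr5, below the level filter, with 0.102 and 0.277 FPKM in the tumours, against 0.616 and 0.514 FPKM in precancerous liver (log2 fold change -1.85, SE 0.43, adjusted p = 0.0334).

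Markers of other cells that can express members of the set are given here as values, and their part in the results was not tested. Stellate cells, which can carry Sox9, and fibroblasts had 12 markers, of which 6 rose and 2 fell over precancerous liver. Acta2 and Col1a1 rose by 3.50 and 3.60, and Lrat, the defining gene of quiescent stellate cells, fell by 2.22 on the log2 scale. The list summed to 131 and 85.6 FPKM in the tumours, 164 and 87.8 FPKM in precancerous and 159 and 79.1 FPKM in normal liver. Dcn, the other gene that fell (log2 fold change -0.91, SE 0.15, edgeR adjusted p = 0.0149), made up most of each sum. It had 71.1 and 43.4 FPKM in the tumours, 140.5 and 74.4 FPKM in precancerous and 132.4 and 63.1 FPKM in normal liver. Mesothelial cells also hold keratins 8, 18 and 19, but none of their 6 markers reached the level filter, and none of 5 was called without it. That list summed to at most 1.08 FPKM in any library. Hepatocyte markers fell in 5 of 11 cases and none rose, with a median log2 fold change of -0.82; Tat fell by 1.79 and Fah by 1.11 on the log2 scale. Endothelial markers rose in 2 and fell in 3 of 10 cases, and summed to 46.6 and 45.7 FPKM in the tumours, 68.6 and 61.3 FPKM in precancerous and 62.5 and 51.3 FPKM in normal liver. Of 6 pancreatic and intestinal genes in the same fit 3 rose: Cdh17 by 5.87, Vil1 by 4.65 and Cela1 by 2.04; Cpa1, Cpb1, Pnlip and Cdx2 were at 0 in all libraries.

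**Figure D4:**
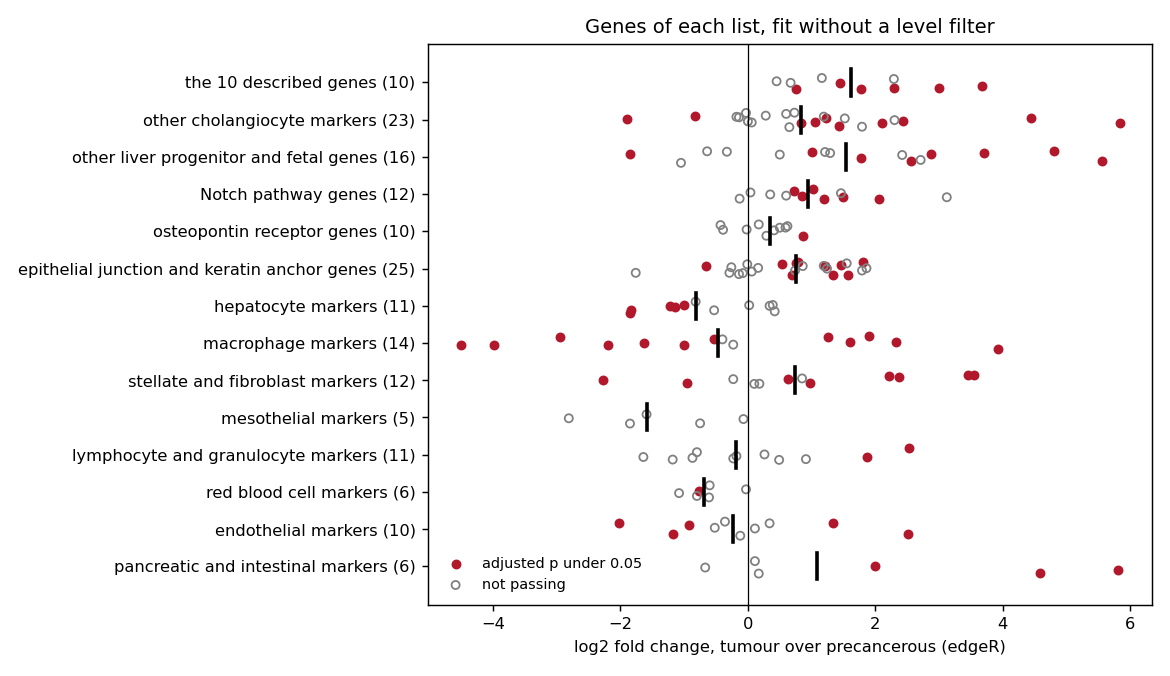
log2 fold change of tumour over precancerous liver from edgeR for the genes of each list in the fit without a level filter, with their number in brackets; red points passed at an adjusted p under 0.05, open points did not, and black bars are medians. The described genes and the other progenitor genes have medians of 1.61 and 1.53, against 0.03 over all genes, while hepatocyte and macrophage markers have medians of -0.82 and -0.46.

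Tumour was next set against normal wild-type liver. Again 6 of the 7 tested members rose, with Epcam in the place of Krt8, and 17.3% of tested genes were called upward. In the fit without a level filter 5 of 10 members rose, against 14.1% of genes. This comparison shares its tumour libraries with the one above and is not independent of it. For Spp1, Cd24a and Krt18 the fold changes over precancerous and over normal liver differed by less than 1 SE, as the values above show.

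Precancerous liver was set against normal liver to see whether the set differed in tissue of transgenic mice outside the tumour. No member was called by edgeR, either among the 7 tested or among the 10 without a level filter, and none had an unadjusted p under 0.05. DESeq2 and limma called none either. Only 0.105% of tested genes were called upward and 0.149% downward, 0.254% in all, and 0.478% were called in the fit without a level filter. The precancerous libraries here are those set against the tumours above. Among the 7 tested members, edgeR log2 fold changes lay between -0.23 for Krt8 (SE 0.17, adjusted p = 0.574) and 1.12 for Prom1 (SE 0.55, adjusted p = 0.409). Their median was 0.01. In the fit without a level filter, Cldn7 had -0.95 (SE 0.81), Krt7 0.90 (SE 0.59) and Krt19 0.42 (SE 0.60), all on few counts. The ratio of Prom1 was 2.54 in females (95% interval 1.91 to 3.40) and 1.55 in males (0.644 to 3.97). Spp1 had ratios of 1.15 in females (1.05 to 1.25) and 0.702 in males (0.592 to 0.833). The sexes thus lay on opposite sides of 1.

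**Figure D5:**
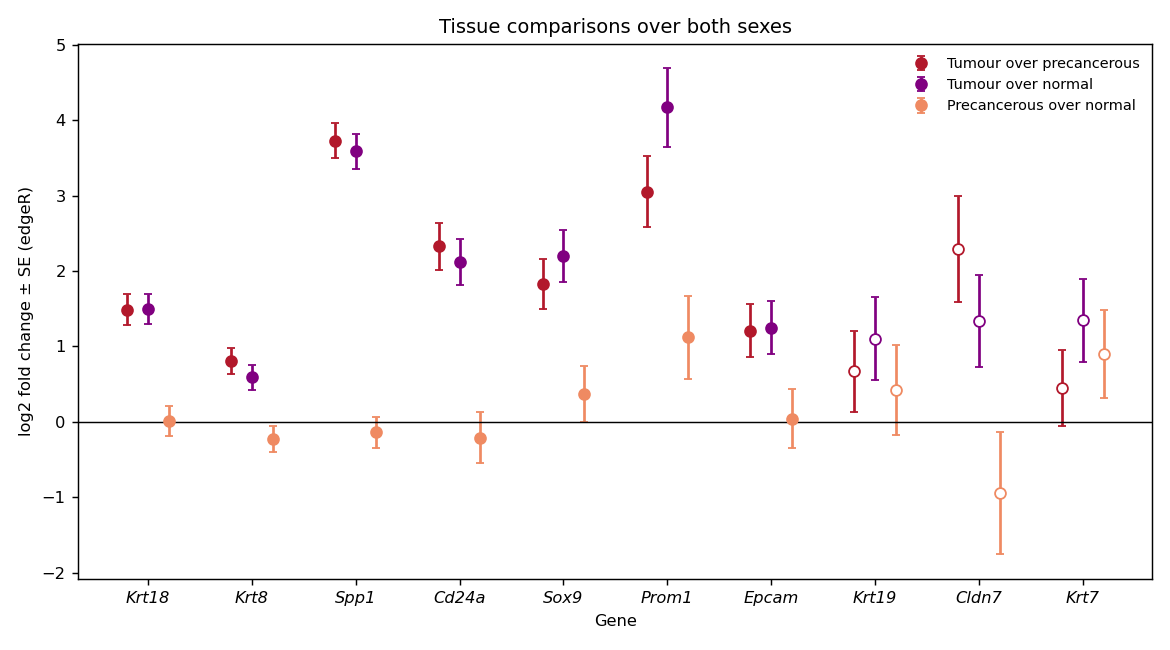
log2 fold change with its SE from edgeR for the 10 genes in tumour over precancerous, tumour over normal and precancerous over normal liver; filled points are from the fit at the level filter and open points from the fit without it. Spp1, Prom1, Cd24a and Sox9 stand at 1.83 or above in both tumour comparisons, while precancerous over normal values lie near 0 for most genes.

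Females aged 15 months were set against males aged 9 months over all tissues. Krt18 was the member called, higher in females by a log2 fold change of 0.56 (SE 0.16, edgeR adjusted p = 0.0479), and 18.2% of tested genes were called higher in females, of 37.3% called in either direction. The Krt18 call held under 5 of 12 alternatives and missed with limma (adjusted p = 0.0774 and 0.0745). Its adjusted p reached 0.196 when a precancerous library was left out, and the call was lost without either tumour as well (0.125 without the female and 0.109 without the male tumour). Cd24a had a log2 fold change of 0.81 (adjusted p = 0.0621) and Prom1 of 0.91 (adjusted p = 0.141). Both passed when either tumour was left out, with log2 fold changes of 1.26 and 1.30 for Cd24a and 1.98 and 2.02 for Prom1.

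Within the tumours, 8 of the 10 members had a higher FPKM in the female than in the male, as did 42.7% of tested genes. The same held for 7 members in precancerous liver (45.8% of tested genes) and 8 in normal liver (44.6%). Krt7, Krt19 and Cldn7 are not among the tested genes behind these shares. In the tumours, Krt19 had a female to male ratio of 3.06 (95% interval 1.30 to 8.76) and Sox9 of 1.88 (1.52 to 2.35). Krt18 stood at 1.67 (1.60 to 1.74) and Krt8 at 1.34 (1.27 to 1.41). Prom1 and Cldn7 were level, at 0.986 (0.874 to 1.12) and 0.978 (0.470 to 2.19). In precancerous liver the order was another: Prom1 had the highest ratio, 4.52 (2.70 to 8.11), followed by Cd24a at 2.65 (1.29 to 6.11), while Krt8 stood at 1.02 (0.945 to 1.09).

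The tested members resembled each other across the libraries. Pearson's r of log2(FPKM + 1) over the 6 libraries lay between 0.86 (Krt8 and Prom1) and 0.98 for the 21 pairs, with a median of 0.95. These libraries share the large step between tumour and the other tissues, so r is a description here. Among all tested genes, the one most like each member was Slc6a8 for Sox9 (r = 0.9978), Atp9a for Spp1 (0.9982), Maea for Prom1 (0.9999), Wdr1 for Cd24a (0.9978), Spryd3 for Epcam (0.9971), Swsap1 for Krt8 (0.9986) and Ddost for Krt18 (0.9973).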

How the data were processed

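The members and gene lists were chosen with earlier results of these data known. The authors deposited, per the file headers, 1 table with a raw count and an FPKM value per Ensembl gene and library. Per the submitters' processing notes, the tools were TopHat2 2.0.9 and Cuffdiff and the builds GRCm38 and mm10, with no step assigned to any; how the counting treated strand is not stated there. The deposited FPKM values equalled counts scaled by library total and 1 gene length within a ratio of 0.99992 to 1.00008, for 11171 genes with at least 10 counts in every library. Libraries were stranded, per the labels' protocols. Exons of another gene on the opposite strand cover 5.9% of exonic bases of Prom1, 5.2% of Krt8 and 1.1% of Krt7, and none of the other members', by GENCODE M21 (GRCm38).

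From the counts, edgeR 4.0.16 (R 4.3.3) fitted tissue and sex additively over the 6 libraries, with TMM scaling and 2 residual degrees of freedom; p-values were two-sided and adjusted by Benjamini-Hochberg over all genes tested. The test was tried on simulated counts. Alternatives were DESeq2's size factors, the DESeq2 1.42.0 Wald test, no level filter, limma 3.58.1 on log2(FPKM + 1) and log2(FPKM + 0.1), a model of tissue or sex alone, and each library left out. Ratios of single libraries carry exact conditional binomial 95% intervals. Pseudogene copies were sought with BLAST 2.17.0 (at least 90% identity over 200 bases). Named genes beyond the members were the 4 highest other keratins, up to 4 tested genes per list with the largest mean difference between tumour and precancerous liver, and the most similar genes. Gpnmb, Lgals3, Ccr2, Trem2, Vsig4, Cd5l, Csf1r, Adgre1, Ggt1, Rbpj, Hes5 and Cd44 were named after their values were seen. So were Plec, Cldn12, Cftr, Sctr, Lgr5, Krt14, Cpa1, Cpb1, Pnlip, Cdx2, Alb and Dcn. Some genes of the lists are not reported here by name.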

Additional observations from a re-analysis of the deposited data

Results flagged for a closer look

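Each result here is a difference of log2(FPKM + 1) within a sex that had opposite signs in females and males. With 1 library a group, the difference between the sexes was not tested. In tumour over precancerous liver, Krt19 differed by 0.57 in females and -0.15 in males, a gap of 0.72, and Krt7 by 0.12 and -0.03, a gap of 0.15. In precancerous over normal liver, Spp1 differed by 0.18 in females and -0.45 in males (a gap of 0.63), Krt18 by 0.23 and -0.19 (0.42), Sox9 by 0.35 and -0.01 (0.36) and Epcam by 0.15 and -0.21 (0.36). In the same comparison Krt19 differed by -0.01 in females and 0.30 in males (a gap of -0.31), Cldn7 by -0.21 and 0.11 (-0.32) and Krt23 by -0.88 and 0.61 (-1.49). In tumour over normal liver Krt10 differed by -0.01 in females and 0.12 in males (-0.13). Of these, Krt7, Krt19, Cldn7 and Krt10 had at most 46 counts in any library.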

How the results depend on the processing

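In tumour over precancerous and tumour over normal liver, all 7 tested members kept their direction under all 12 alternatives, as they did in females over males. Without sex in the model 1 member was called in tumour over precancerous and 1 in tumour over normal liver, with 113 and 690 genes in all (2965 and 3819 with it). Females over males without tissue in the model called 0 members and 1237 genes, against 1 and 4270, and DESeq2 called 2 members. Precancerous over normal liver called 29 genes, and 368 with DESeq2, 82 without the level filter, 3 and 10 with limma at pseudocounts of 1 and 0.1, and 0 without sex. With 1 library left out, which leaves 1 residual degree of freedom, members called ranged from 1 to 6 in tumour over precancerous liver, 4 to 6 in tumour over normal, 0 to 0 in precancerous over normal and 0 to 2 in females over males. Genes called ranged from 458 to 2933, 1923 to 3241, 0 to 219 and 762 to 3732. The lowest counts in tumour over precancerous liver came without the male precancerous library, where Spp1 alone was called, and without the female one (506 genes), where Spp1 and Prom1 were. In precancerous over normal liver, signs turned for Epcam, at 0.04 in the main analysis: -0.04 with DESeq2, -0.03 and -0.13 with limma at pseudocounts of 1 and 0.1, and -0.03 without sex. With 1 library left out, its values there ran from -0.62 to 0.34, those of Krt18 from -0.24 to 0.28, Prom1 from -0.14 to 1.75, Spp1 from -0.47 to 0.20, Cd24a from -0.78 to 0.08 and Sox9 from -0.27 to 0.81. The cause of these changes was not tested. No paired analysis was possible because the labels give no replicate numbers; the sex term of the main model matches libraries by sex and age, not by mouse. Few counts limit Krt7, Krt19 and Cldn7, which had 72, 94 and 58 counts over all libraries.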
